A study of Homo sapiens with 6 samples.

Results

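The 10 genes described here belong to the laminin system and were followed in tumours grown along the sciatic nerve. They were taken by symbol from the deposited count table as chains of nerve and vessel basement membrane laminins (LAMA4, LAMA5, LAMB1, LAMB2, LAMC1) and the integrin subunits that bind laminin (ITGA3, ITGA6, ITGA7, ITGB1, ITGB4). All 10 were among the 17081 genes of the table, and all 10 were among the 13382 genes kept for testing. RNA came from 3 distal and 3 proximal samples, the regions of a sciatic nerve model that the tumour had invaded. Every sample was tumour tissue of DMS114, a single established human small cell lung cancer line, with no treatment, genotype or animal age given in the labels. Separate animals are not named for the replicates, and p-values therefore cover only the spread among these samples, which could be technical.

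Laminins are trimers of an alpha, a beta and a gamma chain that form the sheet-like core of a basement membrane. Cells hold on to them through integrins, which are pairs of an alpha and a beta subunit, and through dystroglycan. In a peripheral nerve, basement membranes surround each axon with its Schwann cell, the perineurium and the vessels.

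Total counts ran from 16171106 to 26116191 per library. Markers of skeletal muscle, 20 genes, summed to 23.3 to 2566 CPM (counts relative to library sizes scaled by the trimmed mean of M values) in distal libraries and to 26.8 to 377 CPM in proximal libraries. The highest sums were those of distal 3 (MYH1 at 398 CPM, MYH4 at 367 CPM) and proximal 3. Schwann cell markers summed to 89.4 to 133 CPM in distal and 76.8 to 169 CPM in proximal libraries, with PRX up to 50.7 CPM. Endothelial markers were near 0, with sums of 4.45 to 8.49 CPM in distal and 3.91 to 4.85 CPM in proximal libraries, mostly EGFL7 (up to 5.62 CPM), while TEK reached 1.16 CPM, PECAM1 at most 0.0462 CPM and CDH5 at most 0.122 CPM. Macrophage markers summed to at most 5.98 CPM in distal and 5.57 CPM in proximal libraries, mostly LYZ (up to 4.09 CPM), while CSF1R reached 0.916 CPM. Smooth muscle and pericyte markers (377.9 to 885 CPM in distal, 709 to 1173 CPM in proximal) were mostly ACTA2 (190.3 CPM in distal 3, up to 981 CPM elsewhere) and NOTCH3 (up to 188 CPM), with PDGFRB at up to 15.01 CPM and the other 5 at or under 2.02 CPM. Fibroblast and perineurial markers (4564 to 5624 CPM in distal, 5442 to 6151 CPM in proximal) were mostly COL3A1 (up to 5104 CPM) and DCN (up to 584 CPM), while PDGFRA stayed at or under 1.28 CPM and DPT at or under 0.0611 CPM. Of the small cell lung cancer markers, SYP had 56.9 to 63.9 CPM and YAP1 167 to 187 CPM, while POU2F3 stayed at or under 0.247 CPM. Distal 3 stood apart in NEUROD1 (6.47 CPM, against at most 0.618 CPM elsewhere), NCAM1 (3.91 CPM, against at most 0.988 CPM) and ENO2 (50.99 CPM, against at most 30.99 CPM). In bulk tissue, fewer cells of a type and less RNA per cell cannot be told apart. Which host was used, and how its reads were treated, is not given in the sources used here.

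Not 1 of the 10 genes passed the test of distal against proximal tumour. ITGA6, the alpha subunit that pairs with either beta subunit of this set, was the one whose groups did not overlap, at 1.10 to 1.51 times the proximal level by its unadjusted 95% interval. LAMB2 and LAMC1, a beta and a gamma chain, were the most abundant laminin chains, with regional log2 fold changes of -0.0061 and -0.054. Over 6 libraries the other 9 genes fell into a pair of opposed patterns that crossed the regions, with distal 3 apart from distal 1 and distal 2. These patterns were described after the values had been seen and were not tested.

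**Figure D1:**
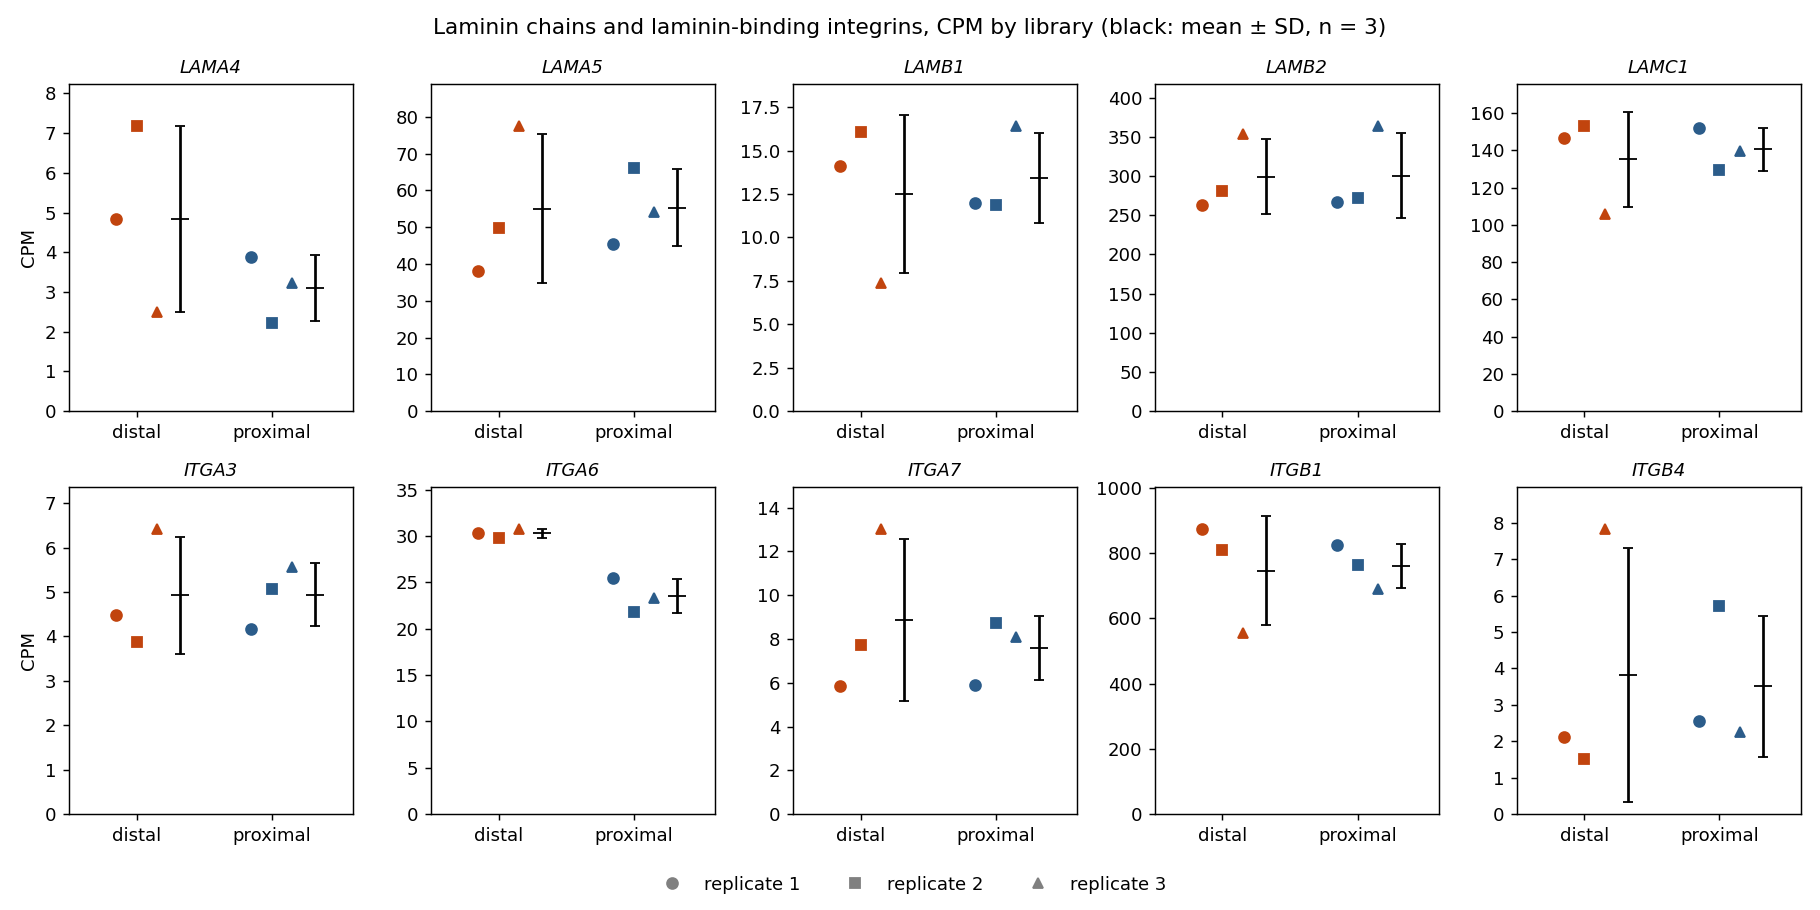
Level of each gene in CPM (vertical axes from 0, a different scale in each panel) in the distal (orange) and proximal (blue) libraries, with the replicate number as symbol and the mean ± SD in black (n = 3). ITGA6 is at 29.8 to 30.7 CPM in distal and 21.8 to 25.4 CPM in proximal libraries, and in the other 9 panels the groups overlap.

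LAMA4 (chromosome 6, 112108760 to 112254939, minus strand, GRCh38) encodes an alpha chain with a shortened arm, found in vessel and nerve basement membranes. It had 4.85, 7.17 and 2.50 CPM in distal libraries 1 to 3, against 3.87, 2.22 and 3.23 CPM in proximal libraries 1 to 3. Distal 2 was highest, and distal 3 lay within the proximal range. The log2 fold change of LAMA4, distal minus proximal here and throughout, was 0.64 (SE 0.38, 95% interval -0.20 to 1.49) and 0.25 without distal 2. LAMA4 rested on 41 to 174 reads per library, with means of 4.84 ± 2.33 CPM in distal and 3.11 ± 0.834 CPM in proximal tumour (SD, n = 3 each).

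LAMA5 (chromosome 20, 62307955 to 62367312, minus strand) encodes the full-length alpha chain of many adult epithelial and vessel basement membranes. It had 38.0, 49.7 and 77.4 CPM in distal libraries, against 45.4, 66.2 and 54.3 CPM in proximal libraries. The distal libraries held both the lowest and the highest value, and the means were 55.0 ± 20.3 CPM in distal and 55.3 ± 10.4 CPM in proximal tumour (SD, n = 3 each). Its log2 fold change was -0.0084 (SE 0.28), and it was -0.33 without distal 3 and 0.20 without distal 1. The start region of LAMA5 is shown because its transcript was the richest of the 10 in G and C (66.4%). The 250 bases before its RefSeq start (chr20:62367313-62367562, minus strand, GRCh38.p14) are printed 5′ to 3′ with GC boxes, GGGCGG on either strand, in capitals.
LAMA5: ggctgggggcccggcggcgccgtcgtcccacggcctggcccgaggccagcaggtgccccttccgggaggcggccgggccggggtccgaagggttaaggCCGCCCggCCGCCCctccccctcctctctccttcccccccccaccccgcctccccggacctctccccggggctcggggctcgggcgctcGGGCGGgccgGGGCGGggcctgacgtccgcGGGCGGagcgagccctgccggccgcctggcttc
This window held 5 GC boxes and was 82.8% G and C. A GC box was present in 42.6% of the windows of this length before the 35116 RefSeq starts in the table.

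LAMB1 (chromosome 7, 107923799 to 108003255, minus strand) encodes a beta chain of wide distribution. It had 14.1, 16.1 and 7.39 CPM in distal libraries, against 12.0, 11.9 and 16.4 CPM in proximal libraries. Distal 3 was lowest and the groups overlapped. Its log2 fold change of -0.094 (SE 0.28) became 0.17 without distal 3.

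LAMB2 (chromosome 3, 49121114 to 49133118, minus strand) encodes the beta chain known from neuromuscular synapses, kidney glomeruli and vessels. It had 263, 281 and 353 CPM in distal libraries, against 267, 271 and 363 CPM in proximal libraries. Replicate 3 was highest in each region, and the means were 299 ± 47.7 CPM in distal and 300.4 ± 54.5 CPM in proximal tumour (SD, n = 3 each). LAMB2 had a log2 fold change of -0.0061 (SE 0.15, 95% interval -0.35 to 0.34).

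LAMC1 (chromosome 1, 183023460 to 183145592, plus strand) encodes the gamma chain shared by most laminin trimers. It had 147, 153 and 106 CPM in distal libraries, against 152, 130 and 140 CPM in proximal libraries. Distal 3 was lowest, and the other 5 libraries lay close together. LAMC1 had a log2 fold change of -0.054 (SE 0.13, 95% interval -0.36 to 0.25) and 0.092 without distal 3.

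Per kilobase of exon the chains of a trimer were present in unequal amounts. On this scale, LAMB2 averaged 43.6 ± 6.94 CPM per kb in distal and 43.8 ± 7.94 CPM per kb in proximal tumour, and LAMC1 16.1 ± 3.03 in distal and 16.7 ± 1.34 CPM per kb in proximal. The alpha chain LAMA5 had 3.85 ± 1.42 CPM per kb in distal and 3.87 ± 0.730 CPM per kb in proximal tumour (SD, n = 3 each). LAMB1 (1.54 ± 0.559 in distal and 1.65 ± 0.317 in proximal) and LAMA4 (0.418 ± 0.202 in distal and 0.268 ± 0.0720 CPM per kb in proximal) were lower still. The alpha chain with the highest mean was outside the 10 genes: LAMA2, known from muscle and Schwann cell basement membranes, had 7.93 ± 1.06 CPM per kb in distal and 5.83 ± 3.47 CPM per kb in proximal tumour. Its range of 1.82 to 8.98 CPM per kb overlapped that of LAMA5, 2.66 to 5.42.

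**Figure D2:**
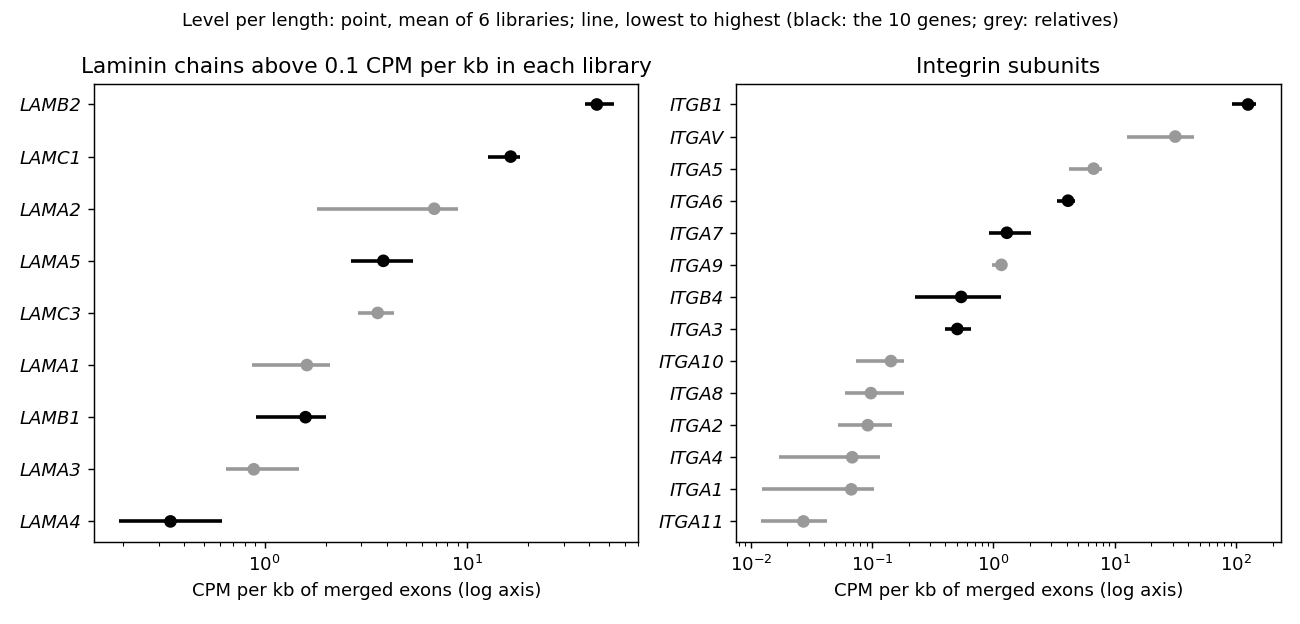
Level per length in CPM per kb of merged exons (horizontal log axes) for laminin chains above 0.1 CPM per kb in each library (left) and integrin subunits (right), the mean of 6 libraries as a point and the lowest to highest library as a line, with the 10 genes in black and relatives in grey. LAMB2 at 43.7 and LAMC1 at 16.4 CPM per kb lead the laminin chains, and ITGB1 at 125 CPM per kb leads the integrins.

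The coding sequences of the 3 alpha subunits differed in base composition. A stretch of 90 coding bases is shown from each because it carries a short membrane-proximal segment that integrin alpha subunits share. The capitals mark the 15 bases that encode it, in the longest reading frame of the GENCODE 29 transcripts.
ITGA3: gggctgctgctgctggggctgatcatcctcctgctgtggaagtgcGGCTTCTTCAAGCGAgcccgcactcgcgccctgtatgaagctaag
ITGA6: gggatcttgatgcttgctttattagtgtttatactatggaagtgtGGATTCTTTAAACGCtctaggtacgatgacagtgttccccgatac
ITGA7: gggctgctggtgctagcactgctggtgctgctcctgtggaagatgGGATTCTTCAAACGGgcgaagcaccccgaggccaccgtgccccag
Over the whole coding sequence ITGA3 was 60.2% G and C, ITGA7 60.7% and ITGA6 44.7%. At the third codon position the shares were 75.9% in ITGA3, 72.2% in ITGA7 and 43.0% in ITGA6.

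ITGA6 (chromosome 2, 172427354 to 172506282, plus strand) had 30.3, 29.8 and 30.7 CPM in distal libraries, against 25.4, 21.8 and 23.3 CPM in proximal libraries. All 3 distal libraries lay above all 3 proximal libraries, and distal 3 did not stand apart from its group here. The means were 30.3 ± 0.442 CPM in distal and 23.5 ± 1.80 CPM in proximal tumour (SD, n = 3 each). This is a log2 fold change of 0.36 (SE 0.10, 95% interval 0.14 to 0.59). The quasi-likelihood test of edgeR gave ITGA6 a p of 0.00525, and an adjusted p of 0.9997 by Benjamini-Hochberg over all genes. Groups did not overlap with distal higher for 3.2% of all genes tested, with distal lower for 3.09% and in either direction for 6.28%, so 1 such gene among 10 is near that background. Leaving out any 1 library, the value of ITGA6 stayed between 0.31 and 0.42.

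The start region of ITGA6 is shown because its groups did not overlap. The 250 bases before its RefSeq start (chr2:172427086-172427335, plus strand, GRCh38.p14) are printed 5′ to 3′. The capitals mark an E-box (CACGTG) and a TATA box (TATAAA, here on the opposite strand).
ITGA6: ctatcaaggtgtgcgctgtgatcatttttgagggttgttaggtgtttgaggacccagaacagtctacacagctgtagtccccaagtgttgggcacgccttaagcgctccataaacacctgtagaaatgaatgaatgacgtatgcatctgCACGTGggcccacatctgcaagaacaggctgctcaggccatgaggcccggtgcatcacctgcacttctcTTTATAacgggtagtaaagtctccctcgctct
Its window was 50.8% G and C and held no GC box. An E-box stood in 6.34% and a TATA box, on either strand, in 10.7% of all windows searched. RefSeq start regions were found for 7 of the 10 genes.

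ITGA3 (chromosome 17, 50055968 to 50090481, plus strand), a partner of ITGB1 that binds LAMA5-containing laminins, had 4.49, 3.87 and 6.41 CPM in distal libraries, against 4.18, 5.08 and 5.57 CPM in proximal libraries. The distal libraries again held both extremes. The log2 fold change was -0.0096 (SE 0.25) from 94 to 124 reads per library, and its sign turned in 4 of the 6 fits that left a library out.

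ITGA7 (chromosome 12, 55684568 to 55716043, minus strand), the main laminin-binding alpha subunit of skeletal muscle, had 5.86, 7.71 and 13.0 CPM in distal libraries, against 5.92, 8.73 and 8.08 CPM in proximal libraries. Distal 3, the library with the most muscle reads, was highest. The muscle marker sums were 23.3, 45.4 and 2566 CPM in distal libraries, against 26.8, 58.1 and 377 CPM in proximal libraries. In the order of these sums ITGA7 rose at each step, except that proximal 3 was below proximal 2. The part of muscle reads in this was not tested. The log2 fold change of ITGA7 was 0.22 (SE 0.29). It was -0.16 without distal 3 and 0.071 when the muscle markers entered the fit as a covariate.

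ITGB1 (chromosome 10, 32900319 to 33005792, minus strand), the beta subunit shared by most matrix-binding integrins, had 873, 811 and 556 CPM in distal libraries, against 825, 765 and 692 CPM in proximal libraries. Distal 3 was lowest. The regional log2 fold change was -0.026 (SE 0.16, 95% interval -0.39 to 0.34) and 0.15 without distal 3.

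ITGB4 (chromosome 17, 75721328 to 75757818, plus strand), which pairs with ITGA6 alone and ties it to intermediate filaments in hemidesmosomes, had 2.11, 1.52 and 7.82 CPM in distal libraries, against 2.55, 5.73 and 2.25 CPM in proximal libraries. Distal 3 and proximal 2 were high and the other 4 libraries low. Its highest library was 5.13 times its lowest, the widest range of the 10 genes. The log2 fold change of ITGB4 was 0.10 (SE 0.70, 95% interval -1.58 to 1.79), and -0.94 without distal 3. With replicate 3 of both regions left out it was -1.18, with a p of 0.0205 before and an adjusted p of 0.9991 after adjustment by edgeR's quasi-likelihood test.

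On the scale of CPM per kb, the integrin subunits were led by ITGB1, with 124 ± 28.0 in distal and 126 ± 11.1 in proximal tumour. Of the alpha subunits listed as laminin receptors, ITGA6 had 4.63 ± 0.0676 CPM per kb in distal and 3.60 ± 0.276 CPM per kb in proximal tumour, ITGA7 1.39 ± 0.582 in distal and 1.19 ± 0.231 in proximal, and ITGA3 0.503 ± 0.135 in distal and 0.504 ± 0.0720 in proximal (SD, n = 3 each). ITGB4 had 0.565 ± 0.514 in distal and 0.519 ± 0.285 CPM per kb in proximal. In the order of means over 6 libraries, ITGB1, LAMB2 and LAMC1 were each above the next gene with no overlap of ranges. ITGA6 and LAMA5 overlapped, with ITGA6 above in 3 of 6 libraries. LAMB1 was above ITGA7, and ITGA3 above LAMA4, in 5 of 6. ITGB4 was above ITGA3 in only 2 of 6 libraries, although its mean was higher. The ranges of ITGA7 and ITGB4 overlapped, but ITGA7 was above in each of the 6 libraries.

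Across the 10 genes the edgeR test called 0, with 1 at an unadjusted p under 0.05, where 0% of all 13382 genes were called and 1.33% reached an unadjusted p under 0.05. DESeq2 called 0 of the 10 (0.00749% of all genes, a single gene, EDIL3) and limma-voom 0 (0% of all genes). Values were higher in distal for 4 and lower for 6 of the 10, and the median log2 fold change was -0.0072, against 0.0045 over all genes. The median size of the difference, regardless of sign, was 0.074 for the 10 genes and 0.089 over all genes. Differences over 2-fold either way lay outside the 95% interval for 8 of the 10, all but LAMA4 and ITGB4, and for 84.0% of all genes. The interval stayed within 1.5-fold for 4 of the 10, LAMB2, LAMC1, ITGB1 and ITGA3, and for 9245 of all 13382 genes.

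**Figure D3:**
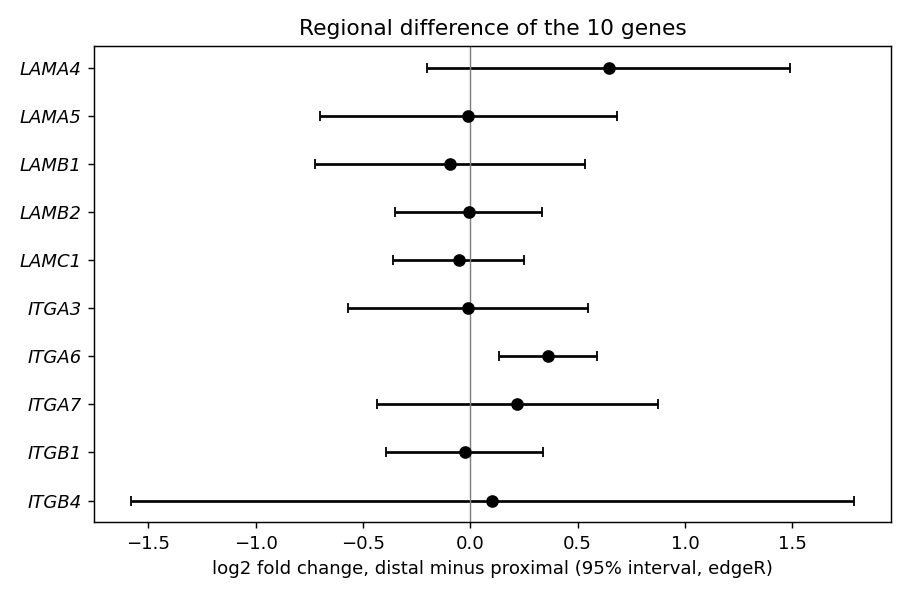
Log2 fold change of each gene, distal minus proximal, with its unadjusted 95% interval from edgeR (horizontal axis). The interval of ITGA6, 0.14 to 0.59, lies above 0, and those of the other 9 genes include 0, with ITGB4 the widest.

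Across the libraries all of the genes but ITGA6 varied together in opposed sets. The sets were drawn after the values had been seen, by the G and C share of the longest coding transcript, which left a gap among the 10: 60.2% to 66.4% in LAMA5, LAMB2, ITGA3, ITGA7 and ITGB4, and 40.0% to 49.5% in LAMA4, LAMB1, LAMC1, ITGB1 and ITGA6. In distal 3 all 5 genes of the G and C rich set were above their own mean over 6 libraries, by 0.64 on average on the log2 scale, and 4 of the 5 others were below, all but ITGA6, with an average of -0.38. In distal 1 and distal 2 all 5 rich genes were below their mean (averages -0.35 and -0.30) and all 5 others above (0.21 and 0.35). The averages of proximal 2 had the same signs as those of distal 3 (0.25 and -0.22), with 4 of 5 rich genes and 1 of the 5 others above their mean. LAMB2 (-0.13), ITGB1 (0.036) and ITGA6 (-0.29) in proximal 2 had the sign opposite to their own in distal 3. Proximal 1 was low in the rich set (-0.26, with 0.048 in the other set), and in proximal 3 the genes went both ways (averages 0.018 and -0.014). There 4 of 5 rich genes were above their mean, with LAMB2 at 0.29 and ITGA3 at 0.19 but ITGB4 at -0.44, and of the other set LAMB1 was at 0.38. Pearson correlations of the log2 levels over the 6 libraries were above 0 in all 10 pairs within the rich set (median 0.76), and in 7 of 10 pairs within the other set (median 0.61). They were below 0 in 24 of 25 pairs across the sets (median -0.71). The exceptions were all pairs of ITGA6, with LAMB1 (-0.26), LAMC1 (-0.12) and ITGB1 (-0.096) in its own set and ITGA7 (0.096) in the rich set. With the 5 rich genes its r lay between -0.19 and 0.096, and of its own set it had a positive r with LAMA4 alone (0.53). The points of each correlation are the same 6 libraries. As the sets were drawn after these values had been seen, the correlations describe the sets and do not test them. The share of such correlations among pairs of all genes was not computed.

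In distal 3, genes of like composition in the rest of the transcriptome had median deviations near 0. Among genes averaging 10 CPM or more, the 1238 with a G and C share of at least 60% had a median of 0.0046 there, and the 5552 genes under 50% had -0.022. The library whose genes differed most by composition was proximal 3, at 0.090 and -0.044. Distal 3 stood apart over all genes as well: its 5 pairs with other libraries had a mean chi-square of 42.4 to 49.4 per gene, against 5.80 to 26.7 in the other 10 pairs. It also had the fewest counts and the most muscle reads of the 6 libraries, and the part of these in the pattern was not tested. For 8 of the 10 genes the SD was larger among distal than among proximal libraries, the exceptions being LAMB2 and ITGA6, and over all genes this held for 52.0%.

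**Figure D4:**
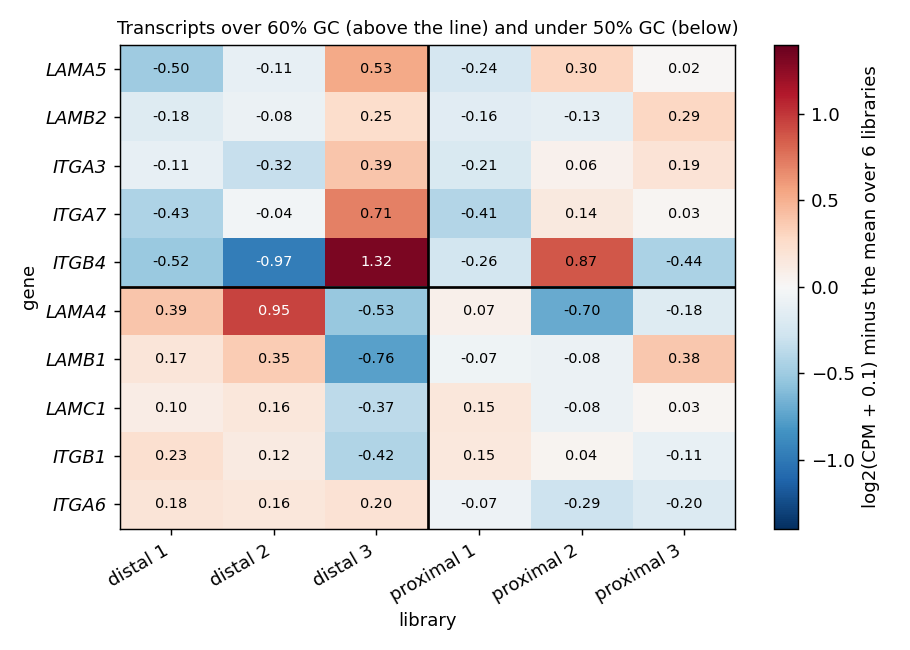
Deviation of each gene (rows) from its mean over the 6 libraries (columns) on the scale of log2(CPM + 0.1), with G and C rich transcripts above the horizontal line and the others below. In distal 3 the upper 5 rows are positive and 4 of the lower 5 negative, and in distal 1 and distal 2 the signs are the other way round, except for ITGA6, which is positive in all 3 distal libraries.

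The balance of chains that compete for a partner or a ligand was read as ratios of counts within a library, which do not depend on scaling. The count ratio of LAMB2 to LAMB1 was 18.6, 17.5 and 47.6 in distal libraries, against 22.2, 22.8 and 22.1 in proximal libraries. The proximal libraries were nearly alike, while distal 3 lay above and the other two distal libraries below them. The ratio of LAMA5 to LAMA4 was 7.81, 6.91 and 30.6 in distal libraries, against 11.7, 29.6 and 16.7 in proximal libraries. That of ITGA3 to ITGA6 was 0.149, 0.130 and 0.210 in distal, against 0.165, 0.233 and 0.240 in proximal libraries. For ITGA7 to ITGA6 it was 0.194, 0.259 and 0.424 in distal, against 0.233, 0.400 and 0.348 in proximal libraries. ITGB4 was a small fraction of ITGB1 everywhere, at 0.00245, 0.00191 and 0.0141 in distal, against 0.00312, 0.00752 and 0.00328 in proximal libraries. The groups overlapped in all 5 ratios.

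None of the 5 ratios differed beyond the spread between libraries. In the exact two-sided permutation test the smallest p was 0.2, for ITGA3 to ITGA6, where the difference of the log2 ratios was -0.39 (distal -2.65 ± 0.353, proximal -2.25 ± 0.301, SD, n = 3 each). The exact p values of the other 4 ratios ran from 0.6 to 1, all 5 were 1 after Benjamini-Hochberg adjustment over the 5, and 3 against 3 libraries cannot give less than 0.1. The difference of the log2 ratios was -0.60 for LAMA5 to LAMA4, 0.16 for LAMB2 to LAMB1, -0.20 for ITGA7 to ITGA6 and -0.075 for ITGB4 to ITGB1.

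**Figure D5:**
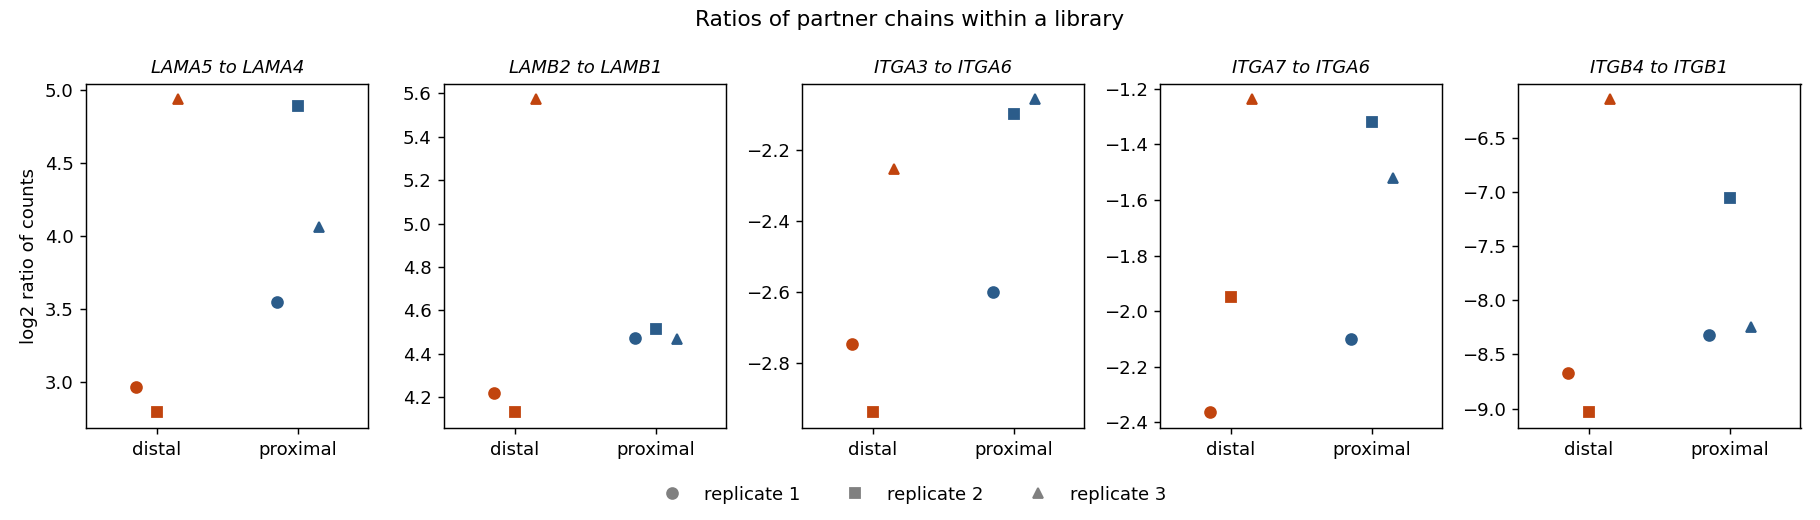
Log2 ratio of the counts of paired chains within each library (vertical axes, a different scale in each panel), distal in orange and proximal in blue, with the replicate number as symbol. Distal 3 is above distal 1 and distal 2 in every panel, and the groups overlap in all 5.

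The remaining laminin chains and other alpha subunits were present at very different levels. Of 7 further laminin chains 6 were in the table and 4 were tested, of which 0 passed, with 3 higher and 1 lower in distal. LAMA2 had 82.2 ± 11.0 CPM in distal and 60.4 ± 36.0 CPM in proximal tumour (SD, n = 3 each, here and for the genes that follow), where proximal 2 was low at 18.9 CPM. LAMC3, another gamma chain, had 28.1 ± 5.58 in distal and 26.9 ± 4.66 CPM in proximal, and LAMA1 28.8 ± 4.20 in distal and 22.6 ± 8.28 CPM in proximal. LAMB3, a chain of the epithelial laminin of skin, had at most 0.176 CPM. Of 9 other integrin alpha subunits 8 were tested and 0 passed, with 6 higher and 2 lower in distal. Groups did not overlap for 1 of the 8, ITGA4, beside 6.28% of all genes. ITGA4 had at most 21 reads per library, with 0.786 ± 0.184 CPM in distal and 0.297 ± 0.141 CPM in proximal tumour. Its log2 fold change was 1.37 (SE 0.53). ITGAV, which binds RGD ligands, had 290 ± 87.5 CPM in distal and 228 ± 109 CPM in proximal tumour, with 103 CPM in proximal 2. ITGA5, the fibronectin receptor subunit, had 46.5 ± 13.0 in distal and 55.0 ± 4.98 CPM in proximal, and ITGA9 9.59 ± 1.41 in distal and 9.66 ± 1.17 CPM in proximal.

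Other laminin receptors were not called in either direction. Of 7 tested, 4 had higher and 3 lower values in distal. Groups did not overlap for 1 of the 7, beside 6.28% of all genes. This was BCAM, with 8.50 ± 0.672 CPM in distal and 6.91 ± 0.606 CPM in proximal tumour. DAG1, which encodes dystroglycan, had 248 ± 25.8 CPM in distal and 274 ± 32.4 CPM in proximal tumour, a log2 fold change of -0.14 (SE 0.11). RPSA, a ribosomal protein also described as a laminin receptor and with many processed copies in the genome that could share its reads, had 919 ± 69.1 in distal and 876 ± 68.8 CPM in proximal. SDC3, a syndecan, had 75.4 ± 16.6 in distal and 80.5 ± 4.91 CPM in proximal. Of 13 genes for the sugar chain through which dystroglycan binds laminin, 0 passed, with 7 higher and 6 lower in distal (median log2 fold change 0.038). POMGNT1 had 110.04 ± 12.6 CPM in distal and 102 ± 14.1 CPM in proximal tumour, and B3GALNT2 77.9 ± 7.31 in distal and 78.3 ± 2.47 CPM in proximal. Groups did not overlap for 4 of these 13 genes, POMT2, RXYLT1 and LARGE2 with distal higher and POMGNT2 with distal lower, beside 6.28% of all genes. The gap was narrow for POMT2 (lowest distal library 26.745 CPM, highest proximal 26.722 CPM). It was narrow also for LARGE2 (0.659 against 0.629 CPM, at most 16 reads per library). By edgeR's quasi-likelihood test 1 of the 13, POMGNT2, had an unadjusted p under 0.05, beside 1.33% of all genes.

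Genes that link laminin to the rest of the matrix and to the cell's cytoskeleton were also not called. All 3 tested linkers of the laminin network had lower values in distal, as did 6482 of all 13382 genes. Their median log2 fold change, -0.29, was that of HSPG2, with -0.68 (SE 0.38) for NID1 and -0.032 (SE 0.13) for AGRN. NID1 (nidogen-1) had 36.3 ± 1.81 CPM in distal and 58.2 ± 31.1 CPM in proximal tumour, where proximal 2 had 93.97 CPM. Its groups did not overlap, by a narrow gap (highest distal library 38.1 CPM, lowest proximal 38.3 CPM). It was 1 of the 3 linkers, beside 6.28% of all genes. AGRN (agrin) had 87.7 ± 8.72 in distal and 89.7 ± 15.5 CPM in proximal, and HSPG2 (perlecan) 20.6 ± 0.890 in distal and 25.3 ± 6.35 CPM in proximal. Of 7 tetraspanins and hemidesmosome plakins 4 had higher and 3 lower values, among them DST (dystonin) at 418 ± 130.3 CPM in distal and 493 ± 47.7 CPM in proximal, PLEC (plectin) at 131 ± 14.2 in distal and 138 ± 15.5 CPM in proximal, and CD63 at 102 ± 9.05 in distal and 102 ± 1.87 CPM in proximal. Of 17 tested adaptors between integrins and actin 8 had higher and 9 lower values. VCL (vinculin) had 245 ± 38.1 CPM in distal and 274 ± 25.3 CPM in proximal tumour, FERMT2 (kindlin-2) 163 ± 13.0 in distal and 172 ± 1.81 CPM in proximal, and TLN1 (talin-1), which opens integrins for binding, 142 ± 12.6 in distal and 163 ± 20.5 CPM in proximal.

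Some genes had a pattern over the libraries close to that of the 3 most variable of the 10. Over the 6 libraries, among 9584 genes averaging 10 CPM or more, the closest to ITGB4 were BACE1 (Pearson r 0.994), CYBRD1 (0.993) and MOCS3 (0.992). The closest to LAMA4 were SRD5A3 (0.989), CHD1L (0.987) and IFNAR2 (0.981), and the closest to ITGA7 were PRKAR1B (0.995), AKAP17A (0.992) and CLDN15 (0.991). With 6 libraries many genes come this close: r was above 0.9 for 182 genes with ITGB4, for 83 with LAMA4 and for 226 with ITGA7.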

How the data were processed

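The deposited values were raw counts of reads for each gene symbol, which the authors had not normalized. Tools named in the submitters' processing notes were STAR 2.7.3a, featureCounts 2.0.1, Trimmomatic 0.39, bcl2fastq and DESeq2, and the build was GRCh38. Per the labels' protocols, TruSeq libraries were made from poly(A) RNA whose integrity number was above 7. Annotation, strand setting and treatment of host reads: not given in the sources used here. Without a known strand setting, reads from exons that overlap an opposite gene cannot be told apart, and in GENCODE 29 such overlaps with counted genes took at most 1.71% of a member's exon length (LAMA5 with ADRM1).

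Counts were analysed in R 4.3.3 with edgeR 4.0.16: expression filter by group, scaling by the trimmed mean of M values, and the robust quasi-likelihood test, adjusted by Benjamini-Hochberg over 13382 genes (threshold 0.05). Group was the sole term of the model. The SE is the absolute log2 fold change over the square root of F. Ratios used counts with 0.5 added. Exon lengths and base composition came from GENCODE 29, where 99.67% of symbols matched, and lengths are of all annotated exons merged, so levels per kb are approximate. Start regions came from RefSeq. Alternatives were other scalings, filters, DESeq2 1.42.0, limma-voom (limma 3.58.1), the replicate number as a block, left-out libraries, a muscle covariate and, added after seeing the data, centring on genes of like composition. The test was also run on counts simulated from the means and dispersions of the fit. Counts of every pair of libraries differed by more than sampling noise.

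The members and lists were chosen with earlier results of these data known. The text gives all 10 members, the 3 most abundant genes of each pathway list, the 2 highest genes of each marker list and the closest genes by correlation. Some genes that this rule would name are not reported here. EDIL3, POU2F3, NEUROD1, NCAM1, ENO2, PDGFRB, ITGA4, BCAM, PECAM1, CDH5, PDGFRA, DPT, POMT2, RXYLT1, LARGE2, POMGNT2 and LAMB3 were named after their values were seen.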

Additional observations from a re-analysis of the deposited data

How the results depend on the processing

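None of the 10 genes was called in any of the 16 alternatives, where the lowest adjusted p was 0.9979, and 0 genes were called over the whole table except 1, EDIL3, with DESeq2 and without distal 1 (0 to 1 with a library left out). The sign of a gene's difference turned in 36 of 160 values, all of genes other than LAMA4 and ITGA6, and the cause was not tested. With upper-quartile scaling the log2 fold changes were 0.0079 for LAMA5, 0.0095 for LAMB2 and 0.0059 for ITGA3, and with centring on genes of like composition 0.0061, 0.022 and 0.018. With the muscle covariate they were 0.0019 for ITGB1 and -0.37 for ITGB4, with limma-voom -0.24 for ITGB4. Without proximal 3 and distal 3 they were 0.34 for LAMB1, 0.017 for LAMB2, 0.087 for LAMC1, -0.11 for ITGA7, 0.083 for ITGB1 and -1.18 for ITGB4, and the difference of the log2 ratio of LAMB2 to LAMB1 was -0.32.

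Leaving out 1 library, the log2 fold changes ranged from 0.25 to 0.95 (LAMA4), -0.33 to 0.20 (LAMA5), -0.32 to 0.17 (LAMB1), -0.14 to 0.15 (LAMB2), -0.15 to 0.092 (LAMC1), -0.24 to 0.13 (ITGA3), -0.16 to 0.44 (ITGA7), -0.16 to 0.15 (ITGB1) and -0.94 to 0.65 (ITGB4). The differences of log2 ratios ranged from -0.31 to 0.41 (LAMB2 to LAMB1), -0.51 to 0.054 (ITGA7 to ITGA6), -0.98 to 0.47 (ITGB4 to ITGB1), -1.29 to -0.21 (LAMA5 to LAMA4) and -0.59 to -0.25 (ITGA3 to ITGA6).

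Whether equal replicate numbers mark paired samples is not given in the labels. Deviations from the group means of same-numbered libraries correlated at 0.61, -0.12 and 0.38. Distal 1 and distal 3 correlated best with the proximal library of their own number, and distal 2 with proximal 1 (0.22). With 3 libraries per group the deviations depend on one another, so they cannot decide whether the samples were paired. With the replicate block 0 genes were called and ITGB4 had -0.12. Reads per library were as few as 37 (ITGB4), but for the 10 genes the variance between libraries was 3.71 (ITGA3) to 336 (ITGB1) times that of counting alone.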
